A study of Mus musculus with 11 samples.

Results

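Long-term Tet iTKO clones were compared with early Tet iTKO populations of mouse embryonic stem cells (mESC) by low-coverage whole-genome sequencing, to ask whether the copy number of any chromosome or region had changed during culture after deletion of the Tet genes. The comparison was chosen by sample labels alone and held 5 of the 11 libraries of the series. The long-term group was 3 libraries, each from a monoclonal population that the labels give as kept in culture for 30 days, where the study's text describes a longer time for its clones, so each library is 1 clone. The early group was 1 population taken before treatment, with Cre not activated, and 1 population taken after acute treatment with 1 µM tamoxifen for 2.5 days and a further 4 days of culture. All 5 carried Tet1,2,3 fl/fl alleles together with Cre/ERT2 and the reporter Rosa26-LSL-H2b-Egfp, in which Cre removes a stop cassette ahead of a green fluorescent histone. The matched Ctrl libraries, used here only to set the Tet iTKO values beside them, carried Cre/ERT2 and the reporter without floxed Tet alleles and were sampled at the same stages (3 long-term clones, 1 pre-treatment and 1 acute population). All cells were grown in 2i medium on fibroblast feeders. The labels name a sort for cells with the green reporter for all of these libraries, which is unclear for the pre-treatment cells, in which Cre was not activated.

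TET enzymes are dioxygenases that oxidise 5-methylcytosine in DNA, which allows methylation to be removed. In Tet iTKO cells, tamoxifen lets Cre-ERT2 enter the nucleus, where it excises floxed exons of all Tet genes at once. Embryonic stem cells divide rapidly, and gains of whole chromosomes, losses of a sex chromosome and focal gains or losses that are carried by single clones are known in such cultures. Read depth along the genome follows copy number: a region that is present in fewer copies than in the reference group gives fewer reads there.

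The 5 Tet iTKO libraries held 584 to 658 megabases of mapped sequence, with a median autosomal depth of 0.230 to 0.254, and at 50 bases per read a window of 500 kb held 2299 to 2544 reads and a bin of 50 kb held 230 to 254. Values below are log2 relative depth, that is the depth of a window or bin divided by the median autosomal depth of the same library, on a log2 scale and after a correction for GC content. A difference is the mean of the long-term clones minus the mean of the early populations on this scale, and all coordinates are mm10. The noise of a window between libraries was 0.0425 to 0.0428 within the long-term clones, 0.0486 between both early populations and 0.0425 to 0.0476 across the stages. With these 5 libraries an exact permutation test cannot give a p-value below 0.1. The limma p-values are moderated, that is, the spread of a window or bin is drawn towards that of all others tested. They therefore do not rest on the spread at that window or bin alone. No p-value here covers a spread beyond these samples. Since the DNA came from whole populations, a change that only some cells carry appears smaller than it is, and opposite changes in different cells offset each other.

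The largest difference between the stages was on the Y chromosome. Depth over Y, relative to the autosomes and on a linear scale, was 0.561, 0.564 and 0.560 in long-term clones 1, 2 and 3, and 0.0601 in the pre-treatment and 0.0536 in the acute population. The long-term clones lay together and far above both early populations, a difference of 0.505 (exact permutation test, two-sided, p = 0.1, the smallest possible). The difference was spread along Y: of its 1764 bins, 0% were below a relative depth of 0.05 in each long-term clone, against 62.0% in the pre-treatment and 66.8% in the acute population. In the 5 Y bins with under 20% repeated sequence, mean depth was 0.615, 0.616 and 0.608 in the clones and 0.0679 and 0.0721 in the early populations. Among single-copy genes of Y, the bins of 8 of 8 (the sex-determining gene Sry, the zinc finger genes Zfy1 and Zfy2, the demethylase genes Kdm5d and Uty, the translation factor gene Eif2s3y, the helicase gene Ddx3y and the deubiquitinase gene Usp9y) did not overlap between the stages (nor did 20.2% of all autosomal bins tested), with 0.342 to 0.697 in the clones and 0.0129 to 0.208 in the early populations. At the bin of Ddx3y, for example, the clones were at 0.636, 0.697 and 0.685 and the early populations at 0.0515 and 0.0703.

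Depth over X did not show a like gap. It was 0.577, 0.575 and 0.575 in the clones, 0.567 in the pre-treatment and 0.572 in the acute population, a difference of 0.0068 (exact permutation p = 0.1). All 5 libraries therefore had X at well under the depth of the autosomes, and the early populations had this X depth with hardly any Y depth. The Ctrl libraries were split in the same way, with a Y depth of 0.476 to 0.480 in the long-term clones and of 0.0526 and 0.0565 in the early populations. In the 5 Y bins with under 20% repeated sequence, the Ctrl clones were at 0.614, 0.662 and 0.633, near the Tet iTKO clones. The early Ctrl populations were at 0.0733 and 0.0675 in these bins. The labels do not say whether long-term clones and early populations came from the same cell line. The study's text describes its long-term clones as grown from single reporter-positive cells of the treated cultures, which would place them in the line of the acute population, whereas the Y depths of these libraries lie far apart. Culture stage and cell line therefore cannot be told apart in any autosomal difference given here, and neither can the loss of the Tet genes and a difference between lines.

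**Figure D1:**
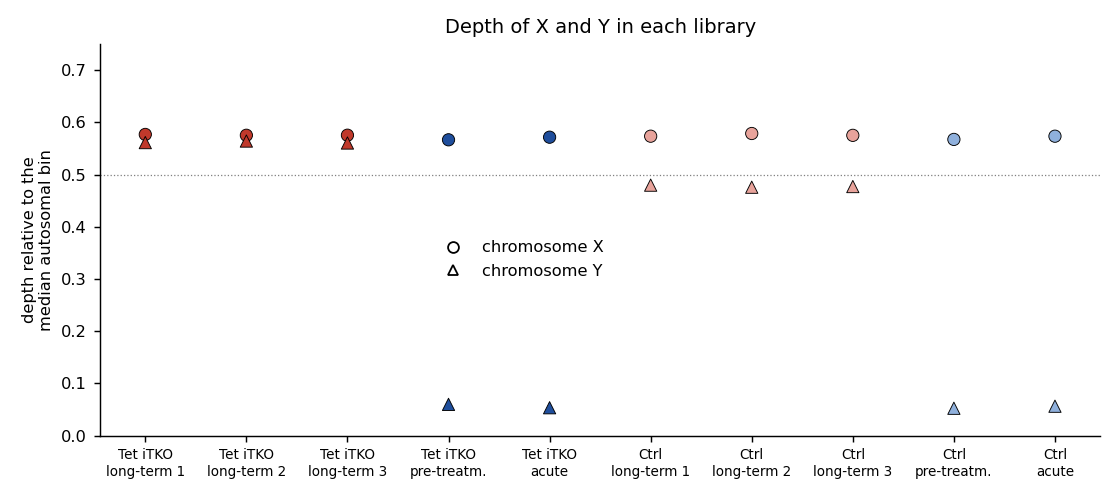
Relative depth of X and of Y (linear scale, autosomes = 1) in the Tet iTKO and Ctrl libraries, each point 1 library. The long-term Tet iTKO clones sit at 0.560 to 0.564 on Y and the early populations at 0.0536 and 0.0601, whereas on X all 5 lie between 0.567 and 0.577.

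No whole autosome reached the calling threshold. The summary of an autosome was the median over its windows, and differences of long-term clones from early populations ranged from -0.010 to 0.0085 over the 19 autosomes, where a call needed 0.1 in either direction. The pooled SD between libraries of a group was 0.0052. The extreme was chromosome 17, at 0.0047, -0.0016 and -0.0012 in the clones and at 0.012 and 0.0099 in the early populations, a difference of -0.010 or -0.714% in depth (exact permutation p = 0.1, adjusted p = 1 over 19 autosomes). Its groups did not overlap, and it was the only autosome with the smallest possible p-value. Chromosome 1 differed by -0.0063 (exact permutation p = 0.2) and chromosome 11 by -0.0010 (exact permutation p = 0.8). Chromosome 8, which is often gained in cultured mESC, was at 0.0040, -0.015 and -0.012 in clones 1, 2 and 3 and at -0.018 and -0.0098 in the early populations. Clone 1 thus lay slightly above the other 4 libraries there, and the difference of 0.0064 was within the spread between libraries (exact permutation p = 0.6).

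Differences between the stages were few and focal. Of 4781 windows of 500 kb, 3 passed a limma adjusted p-value of 0.05 (0.0627%), 1 higher and 2 lower in the long-term clones, and 220 had an unadjusted p-value under 0.05. The middle 95% of window differences ran from -0.061 to 0.058, with a median standard error of 0.028, and 35 windows differed by more than 0.1. Of these, 21 lie in a pair of segments that clone 2 alone carries, and without clone 2 a total of 21 windows differed by more than 0.1, of which 0 lay in these segments. The values of the clones and of the early populations did not overlap in 913 windows (19.1%). Of 47708 single bins of 50 kb, 14 passed the limma threshold (0.0293%), 5 higher and 9 lower, and 2407 had an unadjusted p-value under 0.05. Without clone 2, 5 windows passed, and the called bins fell to 9 without clone 3, to 4 without the pre-treatment population and to 2 without the acute population. Both lower windows were neighbours on chromosome 13, and the higher one was on chromosome 6.

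**Figure D2:**
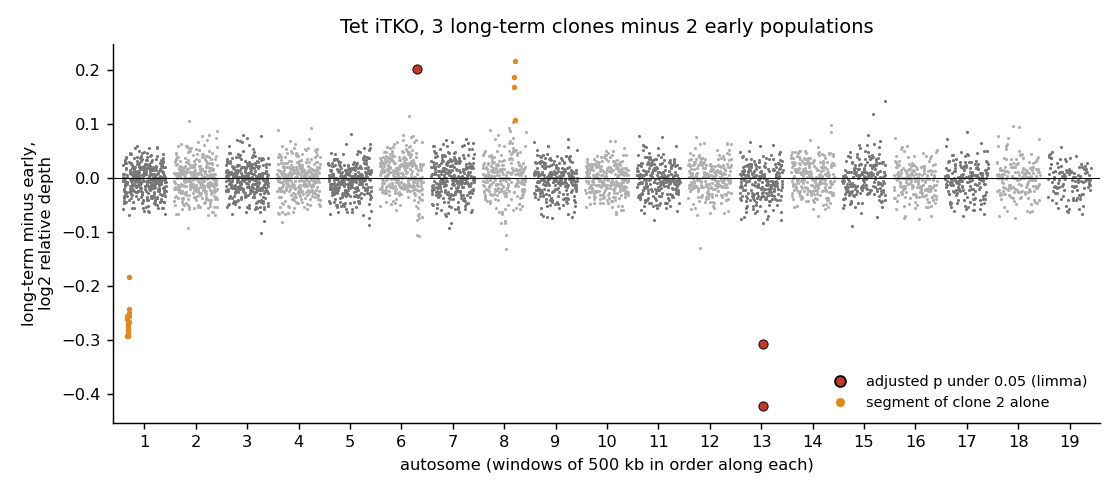
Difference in log2 relative depth (long-term clones minus early populations) of 4781 windows of 500 kb along the 19 autosomes, with called windows marked. Apart from the pair on chromosome 13 (-0.31 and -0.42) and the window on chromosome 6 (0.20), no window passed the limma threshold. Orange points mark the windows of the chromosome 1 and chromosome 8 segments, which come from clone 2 alone.

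The stretch on chromosome 13 was lower in every long-term clone. In the window from 66004494 to 66504363 the clones were at -0.12, -0.16 and -0.15, against 0.26 before treatment and 0.29 after acute treatment. The groups lay far apart, with a difference of -0.42 ± 0.027 (SE; limma adjusted p = 9.18e-08) and a depth ratio of 0.747. The window before it, from 65504624 to 66004493, was at -0.045, 0.0059 and 0.0061 in the clones and at 0.29 and 0.30 in the early populations, a difference of -0.31 ± 0.027 (SE; limma adjusted p = 7.46e-06). Both passed the threshold in 10 of 10 alternative fits. Ctrl clones did not show it: in the first of these windows they were at 0.26, 0.22 and 0.25, and the early Ctrl populations at 0.21 and 0.25 (limma adjusted p = 0.964 for the stage difference of 0.013). All 5 Ctrl libraries therefore lay with the early Tet iTKO populations, and the long-term Tet iTKO clones stood alone.

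In single bins the stretch, whose borders were read from the values, ran from 65654585 to 66554350, about 900 kb. Of its 18 bins, 8 passed the limma threshold over all bins, and differences ranged from -0.24 to -0.58. An unadjusted limma p-value under 0.05 was found in 18. The stretch was extended for as long as every clone lay below both early populations, so the latter count is no separate support. Over the stretch as a whole, the clones were at -0.11, -0.12 and -0.10 and the early populations at 0.28 and 0.30, a depth ratio of 0.757. The 5 Ctrl libraries lay between 0.24 and 0.28. Outside the borders drawn in this way, the 10 bins on either side differed by -0.050 and -0.022 on average. The bin with the largest difference, from 66154455 to 66204441, was at -0.25, -0.17 and -0.16 in the clones and at 0.40 and 0.38 in the early populations, and it was the only called bin that passed in 10 of 10 alternative fits. The 1 run of at least 3 called bins, from 65754559 to 65904519, had a mean difference of -0.49 and lies over Platr2, a long noncoding RNA gene of mESC.

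The annotation of the stretch is dominated by repeated genes. Of 45 annotated genes, 3 were protein-coding (Gm10324, 2410141K09Rik and Gm10772), 9 were long noncoding RNA genes and the other 33 were pseudogenes, among them Vmn2r-ps99 and Vmn2r-ps104, which are remnants of vomeronasal receptor genes. RefSeq describes the products of Gm10324 and 2410141K09Rik as zinc finger proteins. Such genes arise by tandem duplication, and a read from one copy can be placed on another. The share of 31-base words that occur more than once in the genome was 91.2% over the stretch, against a median of 12.3% over all windows. Depth there counts reads from all copies that map to it, so the ratio of 0.757 cannot be read as that of a single-copy region.

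The promoters of both zinc finger genes show how alike the copies are. Each sequence is 300 bases from RefSeq (GRCm38.p6, the assembly of mm10), from 250 bases before to 50 bases after the annotated start, and capitals mark bases that differ between them or have no partner in the alignment. The first is at chr13:66113203-66113502 on the plus strand and the second at chr13:66441069-66441368 on the minus strand.
Gm10324: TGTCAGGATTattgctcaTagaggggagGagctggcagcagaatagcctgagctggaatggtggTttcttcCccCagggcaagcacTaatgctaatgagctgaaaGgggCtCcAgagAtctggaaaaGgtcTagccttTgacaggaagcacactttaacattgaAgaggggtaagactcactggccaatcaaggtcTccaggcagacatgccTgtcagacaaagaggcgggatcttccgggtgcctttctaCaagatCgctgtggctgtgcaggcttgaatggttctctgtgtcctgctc
2410141K09Rik: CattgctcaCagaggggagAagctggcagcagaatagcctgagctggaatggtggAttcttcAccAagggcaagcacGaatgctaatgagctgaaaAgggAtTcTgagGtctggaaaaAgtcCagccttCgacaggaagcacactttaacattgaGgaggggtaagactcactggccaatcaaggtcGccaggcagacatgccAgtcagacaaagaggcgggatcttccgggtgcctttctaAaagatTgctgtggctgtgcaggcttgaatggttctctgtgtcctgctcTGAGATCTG
Over 291 aligned bases, 271 were identical (93.1%). Of the 270 words of 31 bases in the Gm10324 promoter, 270 occurred again elsewhere in the genome, in up to 51 copies, and of those in the 2410141K09Rik promoter 206 (76.3%) did, in up to 54 copies. The bin of Gm10324, from 66104468 to 66154454, was at -0.10, -0.20 and -0.22 in the clones and at 0.26 and 0.32 in the early populations (difference -0.46 ± 0.084, SE; limma adjusted p = 0.0115). A difference at this gene cannot be told apart from one at its near-identical copies.

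**Figure D3:**
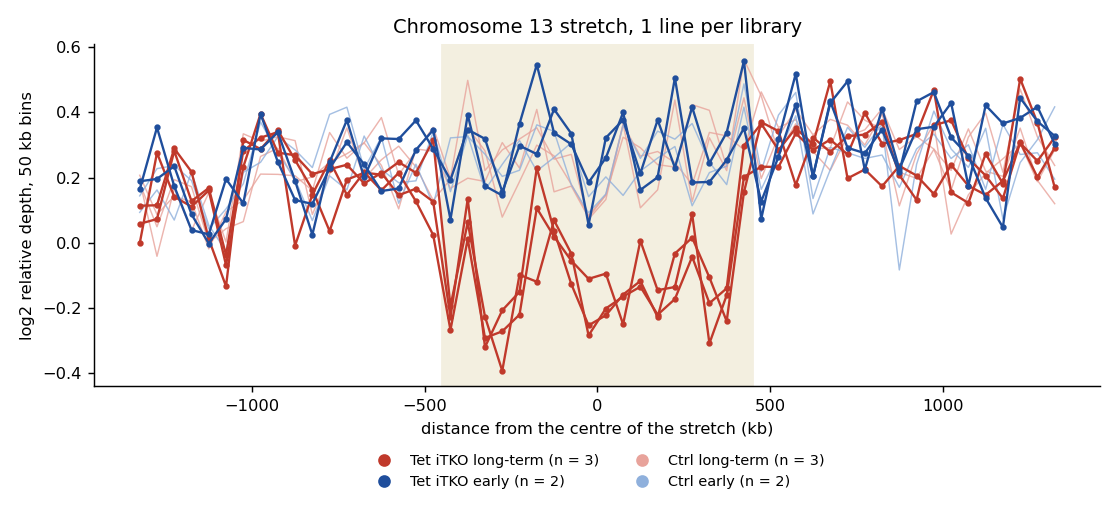
Log2 relative depth of 50 kb bins over the chromosome 13 stretch and its flanks, by position relative to the stretch, in the long-term clones, the early populations and the Ctrl libraries. Averaged over the 18 bins, the long-term Tet iTKO clones are at about -0.11 and the early Tet iTKO populations and Ctrl libraries between 0.24 and 0.30. Single bins vary more widely around these means, and on both sides the groups meet.

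The window that was higher in the clones lies beside the Klra cluster of natural killer cell receptor genes on chromosome 6, from 130515312 to 131015180. The clones were at 0.19, 0.19 and 0.25 and the early populations at -0.0037 and 0.019, so that the groups did not overlap (difference 0.20 ± 0.028, SE; limma adjusted p = 0.00248). No protein-coding gene is annotated in it, and 60.3% of its words were repeated. Without the pre-treatment library the difference was 0.19 and the window no longer passed (limma adjusted p = 0.0954). Ctrl moved the opposite way: its clones were at -0.046, 0.017 and 0.071 and its early populations at 0.17 and 0.20, a stage difference of -0.17 ± 0.028 (SE; limma adjusted p = 0.000159). Long-term Tet iTKO clones thus lay at the level of early Ctrl populations, and early Tet iTKO populations at that of long-term Ctrl clones. In the bin from 130815234 to 130865220, which holds the largest part, the Tet iTKO clones were at 0.54, 0.40 and 0.49 and their early populations at -0.071 and -0.032, while the early Ctrl populations were at 0.49 and 0.51. The Tet iTKO difference of 0.53 ± 0.084 (SE; limma adjusted p = 0.00307) did not pass without the pre-treatment (0.51) or without the acute population (0.55).

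Outside both regions, 4 single bins passed the threshold. The bin on chromosome 3 from 25506730 to 25556709 lies in an intron of Nlgn1, which encodes the synaptic adhesion protein neuroligin, and overlaps none of its annotated exons. It was at -0.20, -0.096 and 0.031 in the clones and at -0.49 and -0.80 in the early populations (difference 0.56 ± 0.092, SE; limma adjusted p = 0.0041). Ctrl differed the same way there, with -0.29, -0.21 and -0.18 against -0.72 and -0.66 (difference 0.46; limma adjusted p = 5.52e-05). The difference at Nlgn1 was therefore found at the same bin in both genotypes. It did not pass in Tet iTKO without clone 3 (0.50) or without the acute population (0.40).

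The bin of Gm15446 on chromosome 5, from 109925011 to 109974967, was lower in the clones, at -0.34, -0.24 and -0.11 against 0.11 and 0.30 (difference -0.44 ± 0.088, SE; limma adjusted p = 0.0419). Ctrl again went the opposite way, by 0.54 (limma adjusted p = 4.13e-07). The bin on chromosome 15 from 103714544 to 103760371 holds Mucl1, a mucin-like gene, and was higher in the clones, at 0.58, 0.79 and 0.75 against 0.25 and 0.31 (difference 0.43 ± 0.086, SE; limma adjusted p = 0.0419). The Ctrl libraries were at 0.22 to 0.40 there, with no gap between stages. The bin on chromosome 8 from 89095206 to 89145212 has no annotated gene and lies beside the transcription factor gene Sall1 (89027235 to 89044162). It was at 0.18, 0.11 and -0.030 in the clones and at -0.33 and -0.36 in the early populations (difference 0.43 ± 0.085, SE; limma adjusted p = 0.0388), and the Ctrl libraries lay with the clones, at 0.038 to 0.18. Each of these 3 calls was lost in 3 or 4 of 10 alternative fits, in every case also without the pre-treatment population (-0.53 at Gm15446, 0.40 at Mucl1 and 0.44 on chromosome 8) and without the acute population (-0.34, 0.46 and 0.42). The calls at Gm15446 and on chromosome 8 were lost without clone 1 as well (-0.38 and 0.38), and that at Mucl1 without clone 2 (0.39) or clone 3 (0.40).

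**Figure D4:**
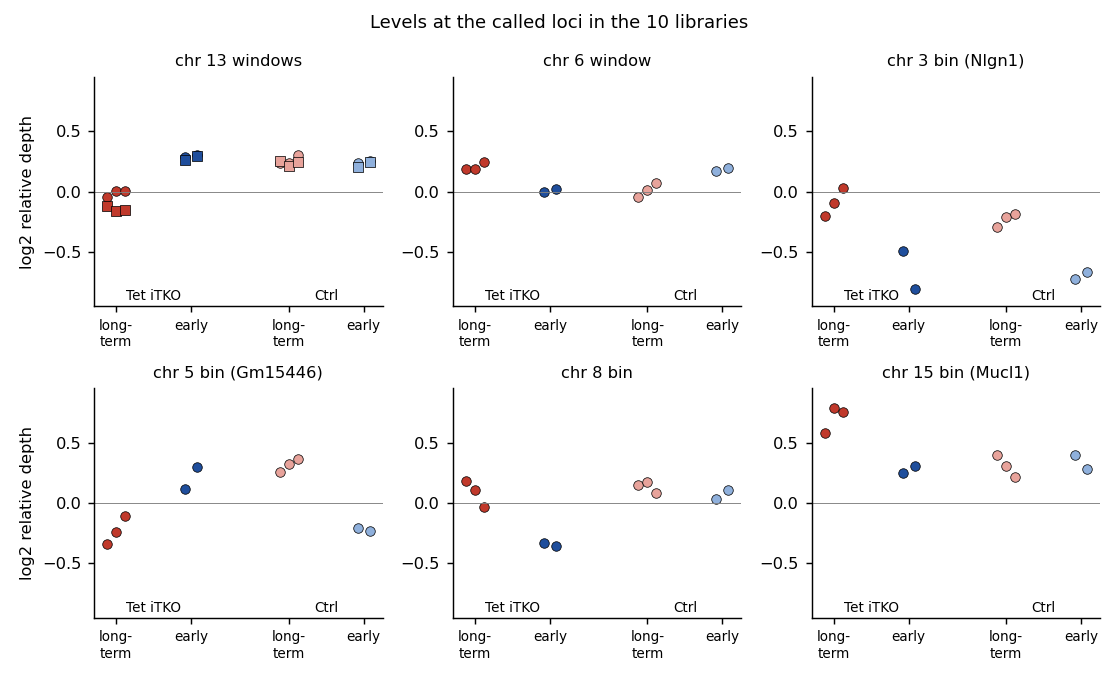
Log2 relative depth of each library in the called regions (dark red, long-term Tet iTKO; dark blue, early Tet iTKO; light red, long-term Ctrl; light blue, early Ctrl; for chromosome 13, circles are the window from 65504624 and squares that from 66004494). In the chromosome 13 windows the long-term Tet iTKO clones lie apart from all other libraries, whereas on chromosome 6 and at Gm15446 the Ctrl stages are ordered the opposite way.

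Repeated sequence was common among the called regions. Windows with over 50% repeated words were 123 of 4781 (2.57%), yet 3 of 3 called windows had that share, and of the called bins 12 of 14 did, where such bins made up 3.51% of all. The exceptions were the bins on chromosomes 8 (14.3%) and 15 (24.6%). Of the 12 repeated bins, 8 lie in the chromosome 13 stretch, which both lower windows overlap. Those on chromosome 6 lie in the higher window, so these counts are not of separate regions. Repeated windows as a class did not differ much more than others, with a median absolute difference of 0.021 against 0.019. The part of repeated sequence in these results was not tested.

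The stage difference in Tet iTKO was then set against that in Ctrl in 1 limma fit over 10 libraries. The Ctrl comparison itself had 23 called windows of 4781 (0.481%), 19 of them higher in the long-term clones, and only the window on chromosome 6 was also called in Tet iTKO, in the opposite direction. Over all windows, the stage differences of both genotypes, which share no samples, had a correlation of 0.0088 across windows, which are not independent. The difference of stage differences passed the threshold in 10 windows (0.209%), 1 positive and 9 negative. The 10 include the 3 called windows, with -0.32 ± 0.038 (SE; limma adjusted p = 2.06e-05) and -0.43 ± 0.037 (SE; limma adjusted p = 4.47e-08) on chromosome 13 and 0.37 ± 0.042 (SE; limma adjusted p = 1.04e-05) on chromosome 6. In the other 7, the Tet iTKO stages differed by -0.11 to 0.040 and none was called there, whereas all were called in Ctrl. One of them holds the Duxbl homeobox genes of chromosome 14 and another Ide, the insulin-degrading enzyme gene on chromosome 19. With no filter on relative depth 13 windows passed, 4 positive and 9 negative. The largest value was then 0.67, in a window of Speer genes on chromosome 5 where the Ctrl clones were at 0.39 to 0.42 and the early Ctrl populations at 1.07 and 1.12, and where the Tet iTKO stages did not pass (limma adjusted p = 0.997).

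Single clones were then examined, each against the mean of both early populations. Clone 2 departed in a pair of long segments that clones 1 and 3 did not share. The first was a loss of about 9 Mb on chromosome 1 from 23016396 to 32014521. Its 17 tested windows were on average 0.81 below the early populations, between -0.93 and -0.54, a depth ratio of 0.572. A window inside it, from 24516084 to 25015978, was left out for a mean relative depth of 1.86. With the depth filter lifted, clone 2 was at 0.61 there, against 0.78 before treatment and 0.99 after acute treatment. Log2 relative depth over the segment was -0.82 in clone 2, -0.027 in clone 1, -0.0068 in clone 3, and -0.029 and -0.0088 in the early populations. The number of copies behind the ratio of 0.572 was not tested. In single bins, the median departure was -0.83 with an SD of 0.23, and 175 of 179 (97.8%) were more than 0.25 below the early mean. The segment was chosen by that cut in windows, so this count is no separate support. Bins within 2 Mb on either side had a median departure of -0.024, with 3 of 79 past the threshold.

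The lost segment holds 18 protein-coding gene symbols, of which Ptp4a1 is annotated in duplicate. Those with the largest overlap were Adgrb3, which encodes an adhesion receptor of neurons, the collagen gene Col19a1, 4931428L18Rik, Fam135a, Lmbrd1, whose product exports cobalamin from lysosomes, and B3gat2, a glucuronosyltransferase gene. Col9a1, another collagen gene, and Ptp4a1, a phosphatase gene, lie there too. Repeated 31-base words made up 18.9% of the segment, above the median of 12.3% over all windows and below the 91.2% of the chromosome 13 stretch. Of 15 RefSeq promoters of its genes, 12 held no repeated word.

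The second segment of clone 2 was a gain of 2.00 Mb on chromosome 8 from 95996237 to 97996535. Over its 4 windows clone 2 was 0.50 above the early populations, a depth ratio of 1.41, at 0.45 against -0.036 in clone 1, -0.050 in clone 3 and -0.043 and -0.055 in the early populations. Of its 40 bins, 36 (90%) were more than 0.25 above the early mean, a count that again follows largely from the choice of the segment. The flanking bins had a median of -0.014, with 5 of 78 past the threshold. No protein-coding gene is annotated in it, but with windows of 100 kb the gain began at 95796207 and took in Got2 (mitochondrial aspartate aminotransferase), Slc38a7 (a glutamine transporter), Cnot1 (the scaffold of a deadenylase) and Sap18b. It is a small part of chromosome 8, whose median in clone 2 stayed at -0.015. Outside these segments, the windows of clone 2 that departed by more than 0.25 were the pair on chromosome 13, as were those of clones 1 and 3. The SD of the departure over all windows was 0.064 in clone 2 and 0.039 and 0.040 in clones 1 and 3.

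A shorter loss was seen in clones 1 and 3 and not in clone 2. It was found with a rule for runs of single bins that was chosen after the data had been seen, and it covers 2 bins, about 100 kb, on chromosome 12 from 34263943 to 34363986. Both bins lie within Hdac9 (34047580 to 34917095), which encodes a class II histone deacetylase, and 4 of its annotated exons overlap them. Clones 1 and 3 were at -1.04 to -1.12, and their depth was 0.542 and 0.549 of that of the early populations. Whether these clones are of separate origin was not tested. Clone 2 was at 1.11 times the early depth, and the 8 libraries other than clones 1 and 3 lay between -0.34 and 0.029. The 4 flanking bins lay between -0.32 and 0.22 over all libraries. Repeated words made up 11.5% and 8.97% of these bins. The group difference at these bins was -0.52 and -0.54 and did not pass (limma adjusted p = 0.662 and 0.782). The rule gave 19 runs in all over the 3 clones, of which 9 lay in the chromosome 1 segment, 6 in the chromosome 8 segment, 2 in the chromosome 13 stretch, and the other 2 were these.

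**Figure D5:**
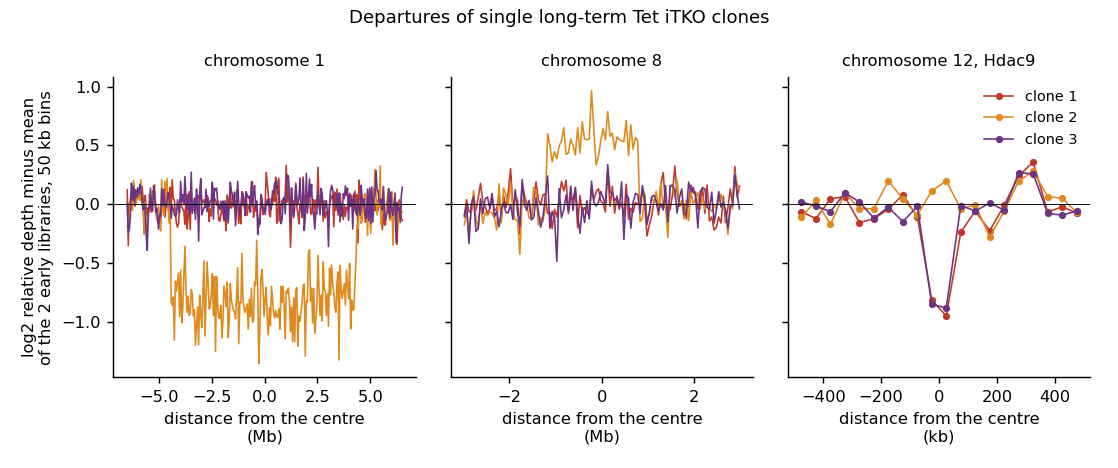
Departure of each long-term Tet iTKO clone from the mean of both early populations (log2), shown for the chromosome 1 and chromosome 8 segments and the Hdac9 bins. Clone 2 alone drops to about -0.81 over about 9 Mb of chromosome 1 and rises to about 0.50 over 2.00 Mb of chromosome 8, while clones 1 and 3 alone drop in the 2 bins of Hdac9.

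The genes targeted in these cells and the genes that the study follows showed no called difference. Each bin is larger than the deleted exons, so the depth does not check the knockout. The window of Tet1 (chromosome 10, 62804570 to 62908996) differed by 0.043, that of Tet2 (chromosome 3, 133463679 to 133545139) by -0.018 and that of Tet3 (chromosome 6, 83362373 to 83459084) by 0.049, each with a limma adjusted p = 0.997. At the bin with the largest overlap, Tet1 was at 0.12, 0.13 and 0.16 in the clones and at -0.089 and -0.12 in the early populations. These values did not overlap, as in 20.2% of all autosomal bins tested. Their difference did not pass (0.24, SE 0.083, limma adjusted p = 0.962). Khdc3 (chromosome 9, 73101836 to 73104438), a gene of the subcortical maternal complex that safeguards chromosome segregation, was at 0.0071, 0.0021 and -0.042 in the clones and at -0.012 and 0.0056 in the early populations, a window difference of -0.0077 ± 0.027 (SE). Ooep, which encodes another protein of that complex (chromosome 9, 78376109 to 78378725), differed by 0.012 ± 0.029 (SE). The groups overlapped at both genes.

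Lists of related genes were counted in the same fit, beside the 0.0627% of all windows that were called and the median difference of all windows of -0.0012. Among 10 targeted and methylation genes, which include the methyltransferase genes Dnmt1, Dnmt3a and Dnmt3b and their partner Uhrf1, 0 windows were called and the median difference was -0.014. Among 7 genes of the subcortical maternal complex the median was -0.0088, and among 12 pluripotency genes, such as Pou5f1 and Nanog, it was -0.0017, with 0 windows called in either. Of 18 genes of chromosome segregation, which hold spindle checkpoint and kinetochore genes, 0 windows were called and 1, that of the mitotic kinase gene Aurka, had an unadjusted p-value under 0.05. Its values were -0.10, -0.079 and -0.14 in the clones and -0.040 and -0.039 in the early populations (difference -0.067 ± 0.028, SE; limma adjusted p = 0.997). At the loci known to vary in copy between inbred mice, among them Glo1, Ide and Nnt, 0 of 7 windows were called and the median was 0.0021.

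Gene families that form tandem clusters were counted too. Of 2176 genes of these families, 2136 lay in tested windows. These made up 431 windows, of which 0 were called and 26 had an unadjusted p-value under 0.05, with a median difference of -0.0051 and a range of -0.13 to 0.092. Olfactory receptor genes (Olfr, 113 windows) had a median of -0.0073, vomeronasal receptor genes of the V1R family (Vmn1r, 34 windows) one of -0.010 and zinc finger genes named Zfp (202 windows) one of -0.0022. The Klra genes, next to the higher window on chromosome 6, lay in 3 windows with a median of -0.022 and a lowest difference of -0.11. The zinc finger genes of the chromosome 13 stretch are not counted among these, since their symbols do not begin with Zfp.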

How the data were processed

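Low-coverage whole-genome sequencing of bulk DNA was analysed from 5 Tet iTKO and 5 Ctrl libraries. Per the study's methods, reads were single-end, and the authors trimmed them, used BWA-mem to map them to mm10 and discarded optical duplicates (Picard). Those methods mapped only reads above a length limit that exceeds the 50 bases per read found below. The authors' processing notes also name BSMAP, so which mapping gave these files is unclear. The deposited signal is the mean depth of 52958 bins of about 50 kb, which was not scaled or corrected for GC content or mappability. Depth times bin length gave whole bases in 99.96% of values (within 0.06), and 96.2% of the 3432 values under 400 bases were multiples of 50 (within 1 base), from which reads were counted. A deposited log2 column was not used.

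Bins were summed into 500 kb windows, divided by the median autosomal bin depth, put on a log2 scale and GC-corrected (lowess per library, span 0.3, 3 iterations, statsmodels 0.14.6). Windows and bins with a mean relative depth outside 0.5 to 1.5 were left out (28 of 4809 windows). Stages were compared with limma 3.58.1 (R 4.3.3; lmFit, eBayes, two-sided, Benjamini-Hochberg adjustment over all windows or bins, called under 0.05). Autosomes, X and Y were compared with exact permutation tests. A clone segment was 3 or more consecutive tested windows at least 0.25 from the early mean, where windows left out were skipped. In an added rule it was 2 or more bins at least 0.5 from that mean. Repeated sequence is the share of 31-base words found more than once in GRCm38, from a sample of 1 in 64 words. Genes are from GENCODE M21. Named were called stretches, runs of 3 called bins, autosomes 1, 8 and 11, clone segments with up to 6 genes of largest overlap, and Tet1, Tet2, Tet3, Khdc3 and Ooep; other genes and single bins were chosen after their values were seen. Members and lists were chosen with earlier results of these data known. Counts of libraries within a group were compared before GC correction. Chi-square per degree of freedom was 1.12 for clones 1 and 3, 2.33 and 2.26 for their pairs with clone 2, and 1.44 for the early pair. Taken before that correction, these values cannot show that the clones are independent. Each library was counted as a separate replicate. Whether clones 1 and 3, which share the loss in Hdac9, are of separate origin was not tested. Alternatives covered scaling, GC correction, filter, window size, spread, a replicate block and leaving out each library. The scripts were tested on simulated data. Python 3.11.15, numpy 2.4.6, pandas 2.3.3 and matplotlib 3.10.9 were used.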

Additional observations from a re-analysis of the deposited data

Results flagged for a closer look

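The stage difference (long-term minus early) in Tet iTKO differed from that in Ctrl by limma's interaction term in 10 windows of 500 kb, and each is given here as Tet iTKO minus Ctrl on the log2 scale. On chromosome 13 the values were -0.32 for the window starting at 65504624 and -0.43 for that at 66004494, and on chromosome 6 the window at 130515312 had 0.37. In these windows the Tet iTKO stages themselves differed.

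In the other 7, the Ctrl stages differed and the Tet iTKO stages did not pass. On chromosome 14 the windows at 25507039 and 26001732, which hold Duxbl genes, had -0.31 and -0.51. In the latter, the Tet iTKO clones were at -0.034, -0.036 and -0.068 and the early Tet iTKO populations at -0.083 and -0.090, whereas the Ctrl clones were at 0.30 to 0.32 and the early Ctrl populations at -0.28 and -0.19. On chromosome 6, the window at 128515837, with the natural killer cell receptor gene Klrb1 and with Clec2 genes, had -0.20. That at 130015444, also on chromosome 6 and with Klra genes, had -0.24. The window at 70982004 on chromosome 11, which holds the inflammasome sensor genes Nlrp1a and Nlrp1b, had -0.22. The window at 37023563 on chromosome 19, which holds Ide, had -0.18, and the window at 116498640 on chromosome 1, which overlaps Cntnap5a, had -0.18. At Ide, all 5 Tet iTKO libraries were at 0.34 to 0.39, as were the Ctrl clones, and the early Ctrl populations were at 0.18. Leaving out 1 library ended the call in 1 or more fits for the windows on chromosomes 1 and 19 and for those at 128515837 and 130015444 on chromosome 6.

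With no filter on relative depth, 3 more windows passed, each with a mean relative depth above 1.5. On chromosome 5, the windows at 14512088 and 15507606, which hold genes of the multicopy Speer family, had 0.42 (limma adjusted p = 1.84e-07) and 0.67 (limma adjusted p = 1e-11). In the latter, all 5 Tet iTKO libraries were at 1.49 to 1.51, whereas the Ctrl clones were at 0.39, 0.42 and 0.42 and the early Ctrl populations at 1.07 and 1.12. The Tet iTKO stages thus differed by -0.0071 there. On chromosome 13 the window at 12480292, which overlaps Prl2c3, a gene of the prolactin family, had 0.19 (limma adjusted p = 0.0117), with Tet iTKO stages that differed by 0.030.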

How the results depend on the processing

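The 3 called windows became 6 with a variance trend and robust fit and 9 with windows of 100 kb, and leaving out 1 library gave 2 to 5. The 14 called bins became 2 to 16 when 1 library was left out, with 4 without the pre-treatment library, 2 without the acute library and 9 without clone 3. The 10 windows of the comparison with Ctrl became 29 with windows of 100 kb, 13 with no filter on relative depth (4 positive, against 1 of 10) and 7 to 14 when 1 library was left out. Same-numbered Tet iTKO and Ctrl clones share only a number (correlations of their deviations 0.022, 0.0021 and -0.0070), and with the number as a replicate block 9 windows passed. The 2 clone segments became 7 with windows of 100 kb and 1 with windows of 1 Mb, and the rule for runs of bins, added after seeing the data, gave 19. The 7 count the shared chromosome 13 stretch once for each clone. They also hold the chromosome 6 region in clone 3, where clones 1 and 2 were higher too (by 0.25 and 0.27). Only a segment of clone 3 on chromosome 7 was a further departure of a single clone. Called autosomes stayed at 0 in all 8 alternatives run, and leaving out 1 library gave 0.0043 to 0.0092 for the X difference and 0.502 to 0.508 for the Y difference. At the bin with the largest overlap, the sign turned for Tet3 (-0.015), Khdc3 (0.068) and Ooep (-0.023), none of which was called. Why these values moved was not tested. Over the alternatives run on single called regions, no direction changed; for windows 29 values stayed past the threshold and 1 did not, and for bins 104 did and 36 did not. At 230 to 254 reads per bin, the standard error of a bin difference was 0.085 (median), which limits what can be seen at a single gene.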

Other observations

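The depth filter had left out 28 windows, all for a mean relative depth above 1.5. With the filter lifted, 0 of them were called between the Tet iTKO stages in limma, whereas 3 differed between the genotypes in their stage difference and are given above. The smallest adjusted p-value was 0.0933, for the window on chromosome 17 from 39499095 to 39998988, which holds the exocrine peptide genes Esp38, Esp15 and Esp16. The clones were at 1.23, 1.21 and 1.21 there and the early populations at 0.97 and 1.11, a difference of 0.17 in log2 relative depth.

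With windows of 100 kb, clone 3 alone had a segment on chromosome 7 from 22720641 to 23120884, where it was 0.30 below the early populations. It was at -0.19, whereas clones 1 and 2 were at 0.075 and 0.093 and both early populations at 0.11. The segment holds the vomeronasal receptor genes Vmn1r158, Vmn1r160 and Vmn1r163, and 96.5% of its words were repeated.

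At Mad2l1, a spindle checkpoint gene chosen after its values were seen, the bin with the largest overlap was at 0.29, 0.27 and 0.18 in the clones and at -0.048 and -0.060 in the early populations. The groups did not overlap, as in 20.2% of all autosomal bins tested. The difference of 0.30 did not pass (limma adjusted p = 0.735), and that of the 500 kb window was 0.021.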
